A study of Mus musculus with 9 samples.

Results

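Genes that cells switch on quickly under stimulation or stress, namely 8 immediate early genes and the Hsp70 gene Hspa1a, were followed in RNA from whole mouse pancreas at stage e18.5. The constitutive Hsp70 gene Hspa8 was followed with them. The 10 members were taken by name (Fos, Fosb, Jun, Junb, Egr1, Ier2, Atf3, Dusp1, Hspa1a and Hspa8) from 55453 genes in the count files. All 10 were listed and all 10 passed the filter on low counts, as did 19166 genes in all. The 9 libraries fall into 3 groups of 3 embryos on a mixed C57BL6 background. The control libraries are labelled Pdx1:Cre, and the other groups are labelled Pdx1:Cre;Grg3 and Pdx1:Cre;Grg3Grg4, called Grg3 and Grg3Grg4 libraries here. All 3 groups therefore carry Pdx1:Cre, a Cre recombinase under the promoter of a gene of the pancreatic epithelium, while the RNA came from every cell of the organ, epithelial or not. Grg3 and Grg4 are other names of Tle3 and Tle4, co-repressors of transcription, and the labels do not say how the alleles were altered. The design text names the second genotype only as Grg.

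The libraries held 46817453 to 62744499 reads counted to genes. Levels are given as CPM, reads per 1000000 counted reads, scaled by edgeR's TMM factors, as mean ± SD with n = 3 libraries a group. Tle3 was higher outside the controls, at 64.8 ± 2.50 CPM in the control, 153 ± 12.0 in the Grg3 and 135 ± 10.5 in the Grg3Grg4 libraries (SD, n = 3). The log2 differences from the control were 1.24 and 1.05, with adjusted p = 0.000270 and 0.000557 by edgeR's quasi-likelihood test. This direction is opposite to a loss of the transcript, so the group names are used only as labels. A count over the whole gene does not test the loss of a part of it. Tle4 stood at 7.77 ± 0.0856, 12.2 ± 2.10 and 11.6 ± 3.51 CPM in the same order, and neither difference from the control passed the test. Acinar enzymes and transcription factors of the exocrine pancreas summed to 134179 to 270646 CPM in each library, and none of the 15 was at 0, so the labelled tissue was matched by its markers.

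Immediate early genes are transcribed within minutes of a signal without new protein synthesis. Kinase cascades of the MAP kinase and cyclic AMP pathways act on factors already bound at their promoters, such as SRF with its ELK partners and CREB. Fos, Fosb, Jun and Junb encode subunits of the dimeric AP-1 transcription factor, Egr1 a zinc finger factor, Ier2 a small nuclear protein, Atf3 a stress-induced member of the ATF/CREB family, and Dusp1 a phosphatase that switches MAP kinases off. Hsp70 proteins fold other proteins at the cost of ATP. Hspa1a and its neighbour Hspa1b are the copies induced by heat through the factor HSF1, and Hspa8 is the form made at a high level in unstressed cells.

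The promoters were read from RefSeq's table for GRCm38.p6, in which 7 of the 10 genes have an entry. Ier2, Egr1 and Hspa8 have none there. In the 250 bases before the transcription start, 5 of the 7 held the letters TGACG on either strand, the core of the cyclic AMP response element, which 17.8% of 32851 promoters held in the same window. They are printed to show where this shared feature lies, 5′ to 3′ on the strand of the gene, with TGACG or its complement in capitals. The windows are chr12:85473740-85473889 on the plus strand, and chr7:19310046-19310195, chr8:84978749-84978898, chr1:191183334-191183483 and chr17:26508520-26508622 on the minus strand, each ending at the base before the RefSeq start except that of Dusp1, which stops 47 bases earlier, where an exon of GENCODE's annotation begins.
Fos: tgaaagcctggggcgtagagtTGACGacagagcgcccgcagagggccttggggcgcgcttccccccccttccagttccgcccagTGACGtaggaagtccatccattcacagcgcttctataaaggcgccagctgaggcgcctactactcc
Fosb: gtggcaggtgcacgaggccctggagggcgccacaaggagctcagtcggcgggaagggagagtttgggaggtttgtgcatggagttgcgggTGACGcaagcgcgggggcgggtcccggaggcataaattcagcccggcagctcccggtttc
Junb: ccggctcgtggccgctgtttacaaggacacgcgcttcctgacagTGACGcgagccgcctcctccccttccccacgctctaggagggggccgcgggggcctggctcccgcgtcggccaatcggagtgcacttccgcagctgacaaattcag
Atf3: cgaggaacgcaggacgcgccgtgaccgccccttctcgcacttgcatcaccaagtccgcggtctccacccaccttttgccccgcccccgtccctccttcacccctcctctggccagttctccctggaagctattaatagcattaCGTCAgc
Dusp1: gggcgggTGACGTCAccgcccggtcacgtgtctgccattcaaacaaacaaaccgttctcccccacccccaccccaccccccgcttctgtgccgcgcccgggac

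In Dusp1 the capitals spell the whole palindrome TGACGTCA, at positions -143 to -136 from the start, which 1.55% of promoters held. Dusp1 had a further TGACG at positions -191 to -187, outside the printed window. Fos held TGACG in 2 places, beginning at positions -129 and -66. The Fosb site began at position -60, the Junb site at -106 and the Atf3 site at -7. Both strands of the same windows were also searched for the CArG box bound by SRF (1.47% of promoters), the AP-1 site TGANTCA (6.75%), the heat shock half-site pairs TTCNNGAA (7.17%) and GAANNTTC (6.69%), the EGR site GCGGGGGCG or GCGTGGGCG (3.06%) and the CCAAT box (33.8%). None of the 7 held the CArG box, TGANTCA or TTCNNGAA in this window. An EGR site lay at -50 to -42 of Fosb, and Jun and Junb held CCAAT. These matches describe letters only, and overlapping motifs were counted separately.

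GAANNTTC was found in 2 of the 7, Jun at positions -128 to -121 and Hspa1a at -104 to -97. Hspa1b, the tandem neighbour of Hspa1a, is printed beside it because the reads of these copies are hard to tell apart. The windows are chr17:34972157-34972306 and chr17:34959239-34959388 on the minus strand, with GAANNTTC in capitals.
Hspa1a: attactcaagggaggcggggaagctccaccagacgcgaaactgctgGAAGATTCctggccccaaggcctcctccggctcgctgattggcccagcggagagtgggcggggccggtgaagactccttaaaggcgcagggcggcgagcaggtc
Hspa1b: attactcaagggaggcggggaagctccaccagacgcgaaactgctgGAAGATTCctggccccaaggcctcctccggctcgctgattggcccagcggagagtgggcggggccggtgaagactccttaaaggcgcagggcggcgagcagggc

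Over 250 bases, 247 were identical between the promoters of Hspa1a and Hspa1b, and both also held a CCAAT box on the other strand at positions -67 to -63. The transcripts share sequence too, by another measure: 66.3% of the 50-base windows of Hspa1a transcripts also occur in another gene, most of them in Hspa1b (58.8%). Of the windows of Hspa8, 39.4% occur in 16 other genes, mostly the retrocopy Gm15459, which had 0 counts in all 9 libraries. Reads that align to several places were left out of the counts, so the levels of Hspa1a and Hspa8 are uncertain by what such reads would add. Reads with no unique place made up 15.8% to 20.7% of each library. Fos, Fosb, Egr1, Ier2, Atf3 and Dusp1 shared no such window with another gene.

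Per kilobase of exon, the mean over the 9 libraries ran from Hspa8 at 134 CPM per kb through Jun (39.8), Ier2 (28.1), Junb (8.53), Egr1 (5.55), Dusp1 (5.39), Fos (3.45), Atf3 (3.40) and Hspa1a (0.651) to Fosb (0.246). This order held in all 9 libraries for 7 of the 9 neighbouring pairs. Egr1 was above Dusp1 in only 4 of 9 libraries and Fos above Atf3 in 5 of 9, so neither of these pairs is ordered beyond its spread. As counted, without reads that align to several places, the stress-inducible Hspa1a was near the bottom of the 10 and the constitutive Hspa8 at the top. Hspa1b, the tandem neighbour of Hspa1a and not one of the 10, was at 1.85 CPM per kb. Fosb rested on 46 to 116 reads a library and Hspa1a on 64 to 230, against 25005 to 37372 for Hspa8.

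**Figure D1:**
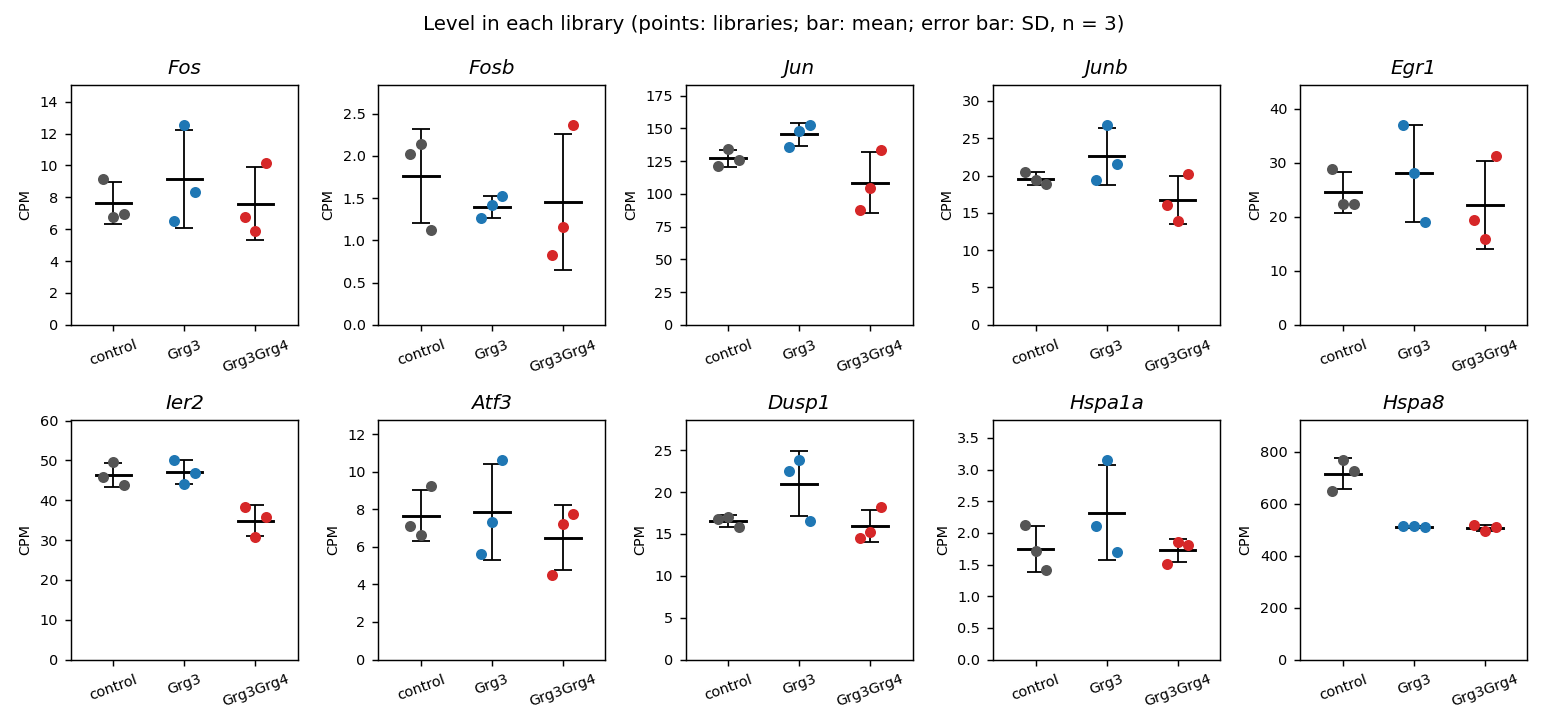
Level of each gene in CPM (vertical axes, from 0) in the control, Grg3 and Grg3Grg4 libraries. Points are libraries, the horizontal bar is the mean and the error bar the SD (n = 3). Hspa8 is the gene whose 3 control libraries, at 650 to 770 CPM, stand above all 6 others, at 494 to 518.

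Among the AP-1 genes, Fos (chr12:85473890-85477273, plus strand) was at 9.16, 6.79 and 6.93 CPM in the control, 6.54, 12.5 and 8.33 in the Grg3 and 6.76, 5.89 and 10.2 in the Grg3Grg4 libraries. The 3 groups overlapped, with the highest value in a Grg3 and the lowest in a Grg3Grg4 library. The log2 change from the control was 0.26 (SE 0.27) in the Grg3 and -0.00 (SE 0.27) in the Grg3Grg4 libraries, each within its standard error. Fosb (chr7:19302696-19310051, minus strand), the scarcest of the 10, was at 2.02, 2.14 and 1.12 CPM in the control, 1.26, 1.41 and 1.52 in the Grg3 and 0.829, 1.16 and 2.37 in the Grg3Grg4 libraries. Its lowest and highest values were thus both in the Grg3Grg4 group, and with a standard error of 0.40 neither change from the control (-0.33 and -0.28) could be told from 0.

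Jun (chr4:95049034-95052222, minus strand), the most abundant of the immediate early genes, was at 122, 134 and 126 CPM in the control, 135, 148 and 153 in the Grg3 and 87.8, 105 and 133 in the Grg3Grg4 libraries. The 3 Grg3 libraries lay above all controls (24.6% of all genes did not overlap) and above all Grg3Grg4 libraries (21.1%), while the last 2 groups overlapped. The log2 change was 0.19 (SE 0.13, adjusted p = 0.467) in Grg3 against control and -0.42 (SE 0.13, adjusted p = 0.167) in Grg3Grg4 against Grg3 by edgeR's quasi-likelihood test, neither past the threshold of 0.05. Junb (chr8:84974484-84978718, minus strand) was at 20.5, 19.4 and 18.8 CPM in the control, 19.4, 26.8 and 21.5 in the Grg3 and 16.0, 13.9 and 20.3 in the Grg3Grg4 libraries. All 3 groups overlapped, and the difference between Grg3Grg4 and Grg3 libraries was -0.44 on the log2 scale (SE 0.15, edgeR adjusted p = 0.199). An antisense gene, Junos, covers 7.28% of the exon bases of Jun, and Prdx2 on the other strand covers 7.52% of those of Junb. The sources do not state whether strand was used in counting, so reads in these stretches cannot be assigned.

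Egr1 (chr18:34859823-34864984, plus strand) was at 28.9, 22.3 and 22.4 CPM in the control, 37.0, 28.0 and 19.0 in the Grg3 and 19.4, 15.8 and 31.3 in the Grg3Grg4 libraries. Each group but the control held both a library under 20 and one over 30 CPM, and the log2 changes from the control were 0.19 and -0.15 (SE 0.28 each). Atf3 (chr1:191170296-191218039, minus strand) was at 7.12, 6.64 and 9.22 CPM in the control, 5.63, 7.34 and 10.6 in the Grg3 and 4.51, 7.19 and 7.73 in the Grg3Grg4 libraries. These groups overlapped as well, with changes of 0.04 and -0.24 (SE 0.26 and 0.27).

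Ier2 (chr8:84661331-84662852, minus strand) was at 45.9, 49.6 and 43.7 CPM in the control, 50.2, 44.1 and 46.8 in the Grg3 and 38.3, 30.7 and 35.7 in the Grg3Grg4 libraries. Every Grg3Grg4 library lay below all controls (29.1% of all genes did not overlap) and all Grg3 libraries (21.1%), while the control and Grg3 libraries overlapped. The group means were 46.4 ± 2.98, 47.0 ± 3.05 and 34.9 ± 3.87 CPM (SD, n = 3). The Grg3Grg4 libraries differed from the control by -0.41 on the log2 scale (SE 0.10, 95% interval -0.63 to -0.20) with adjusted p = 0.0584, and from the Grg3 libraries by -0.43 (SE 0.10) with adjusted p = 0.0913, in edgeR's quasi-likelihood test. Neither passed the threshold. The comparison with the control passed it in DESeq2's Wald test (adjusted p = 0.00979), in limma voom with quality weights (0.0318), without the filter on low counts (edgeR, 0.0384) and without Grg3 replicate 2 (edgeR, 0.0438). In the other 15 of 19 alternatives it did not. The smallest change was -0.16, with library totals (adjusted p = 0.306), where the median gene stood at 0.26, and with embryo sex as a term the change was -0.45 (adjusted p = 0.177).

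Dusp1 (chr17:26505590-26562128, minus strand) was at 16.8, 17.1 and 15.8 CPM in the control, 22.6, 23.9 and 16.6 in the Grg3 and 14.5, 15.2 and 18.2 in the Grg3Grg4 libraries. Of the Grg3 libraries, 2 stood above all others and the third was among the controls. The log2 change was 0.35 (SE 0.14) from control to Grg3, with unadjusted p = 0.0369 and adjusted p = 0.230 in edgeR's test over all genes, and -0.40 (SE 0.14, adjusted p = 0.203) from Grg3 to Grg3Grg4.

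Hspa8 (chr9:40800984-40810087, plus strand) was lower in both other groups than in the control. It was at 650, 770 and 727 CPM in the control, 514, 513 and 509 in the Grg3 and 518, 494 and 510 in the Grg3Grg4 libraries. All 3 controls lay above all 6 others, as did 5.75% of the genes tested. The means were 716 ± 60.4, 512 ± 2.31 and 508 ± 12.1 CPM (SD, n = 3), a level 1.40-fold higher in the control than in the Grg3 libraries and 1.41-fold higher than in the Grg3Grg4 libraries. On the log2 scale Hspa8 fell by 0.48 (SE 0.09, 95% interval -0.69 to -0.27, adjusted p = 0.0400) in the Grg3 and by 0.50 (SE 0.09, -0.70 to -0.29, adjusted p = 0.0322) in the Grg3Grg4 libraries, by edgeR's quasi-likelihood test. Both comparisons share the control libraries. The difference between Grg3Grg4 and Grg3 was -0.01, with a 95% interval of -0.22 to 0.20. Its exons hold the small nucleolar RNA genes Snord14c, Snord14d and Snord14e, which cover 86 or 90 bases each.

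The calls for Hspa8 lie close to the threshold in edgeR's test, and both also passed in DESeq2's Wald test and in limma voom. Over the 19 alternatives by edgeR, DESeq2 or limma voom, adjusted p ran from 4.5e-06 to 0.175 in Grg3 and from 1.7e-06 to 0.175 in Grg3Grg4. The change kept its direction in all 19 alternatives of each comparison, at -0.55 to -0.28 in Grg3 and -0.56 to -0.24 in Grg3Grg4, and missed the threshold in 11 and 9 of them. Leaving out control replicate 2 or 3, Grg3 replicate 1 or 3 or any 1 Grg3Grg4 library ended the call in Grg3, with adjusted p from 0.0510 to 0.175. In Grg3Grg4, leaving out control replicate 2 or 3, Grg3 replicate 1 or any 1 Grg3Grg4 library did so, with adjusted p from 0.0508 to 0.157 (edgeR). With library totals in place of TMM factors the changes were -0.28 (adjusted p = 0.136) and -0.24 (adjusted p = 0.142). That scaling moves the median change of all genes from 0.02 to 0.22 in Grg3 and from 0.01 to 0.26 in Grg3Grg4, so that relative to the median gene Hspa8 differed as before. By the sex read from Xist and Ddx3y, Hspa8 in males was at 650 CPM in 1 control, 514 in 1 Grg3 and 494 to 518 in 3 Grg3Grg4 libraries. In females it was at 727 and 770 CPM in 2 controls and at 509 and 513 in 2 Grg3 libraries. All 3 Grg3Grg4 libraries were male, and with sex as a term the changes were -0.48 (adjusted p = 0.0565) and -0.43 (adjusted p = 0.175).

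Markers of other cells differed between the same groups. In whole-organ RNA, fewer cells of a type and less RNA per cell cannot be told apart. The 15 acinar genes summed to 239778 to 270646 CPM in the control, 134179 to 247266 in the Grg3 and 158999 to 183195 in the Grg3Grg4 libraries, and 2 of 15 fell in each comparison. The 11 beta cell genes summed to 4404 to 5143, 2401 to 4336 and 1277 to 2743 CPM in the same order, with 2 and 6 of 11 lower by the test. The 12 liver genes summed to 213 to 228, 364 to 1805 and 843 to 2045 CPM, and 9 of 12 rose in each comparison. Smooth muscle genes (9) summed to 169 to 240, 371 to 1068 and 285 to 1074 CPM, and skeletal and cardiac muscle genes (9) to 3.38 to 3.77, 16.8 to 39.4 and 9.14 to 1958 CPM, with 0 called. Of 7 stomach and gut genes tested, 3 rose in Grg3, and 1 rose and 1 fell in Grg3Grg4 libraries. Of 8 neural genes, 1 fell in Grg3Grg4 libraries. The share of all genes that passed the test was 1.4% in Grg3 and 2.14% in Grg3Grg4 against control. None of these lists had a marker at 0 in all libraries. The part of these shifts in the Hspa8 result was not tested.

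Hspa1a (chr17:34969190-34972156, minus strand), the heat-inducible form, was at 2.13, 1.72 and 1.41 CPM in the control, 2.10, 3.16 and 1.70 in the Grg3 and 1.51, 1.85 and 1.82 in the Grg3Grg4 libraries. The groups overlapped, and only Grg3 replicate 2 exceeded 3 CPM. That library also had the highest Fos, Junb and Dusp1. It stood apart in other measures, with 10 mesenchyme genes summing to 13931 CPM (8787 to 10876 in the other 8 libraries), 10 endothelium genes to 1473 CPM (966 to 1236) and 3.74% of gene counts from mitochondrial genes (2.07% to 2.86%). No gene of these 2 lists passed the test in either comparison with the control, and the part of this in the levels of the library was not tested. Without Grg3 replicate 2 the change of Fos from control to Grg3 was -0.04. The log2 changes of Hspa1a from the control were 0.41 (SE 0.28) and -0.02 (SE 0.28). Those of Hspa8 were -0.48 and -0.50, opposite in sign in the Grg3 libraries, and the difference between the genes was not tested. Hspa1b was at 4.69, 4.54 and 4.88 CPM in the control, 3.73, 8.10 and 6.20 in the Grg3 and 4.25, 5.71 and 4.63 in the Grg3Grg4 libraries, also with its highest value in Grg3 replicate 2. Gm20481 on the opposite strand covers 19.0% of the exon bases of Hspa1a.

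**Figure D2:**
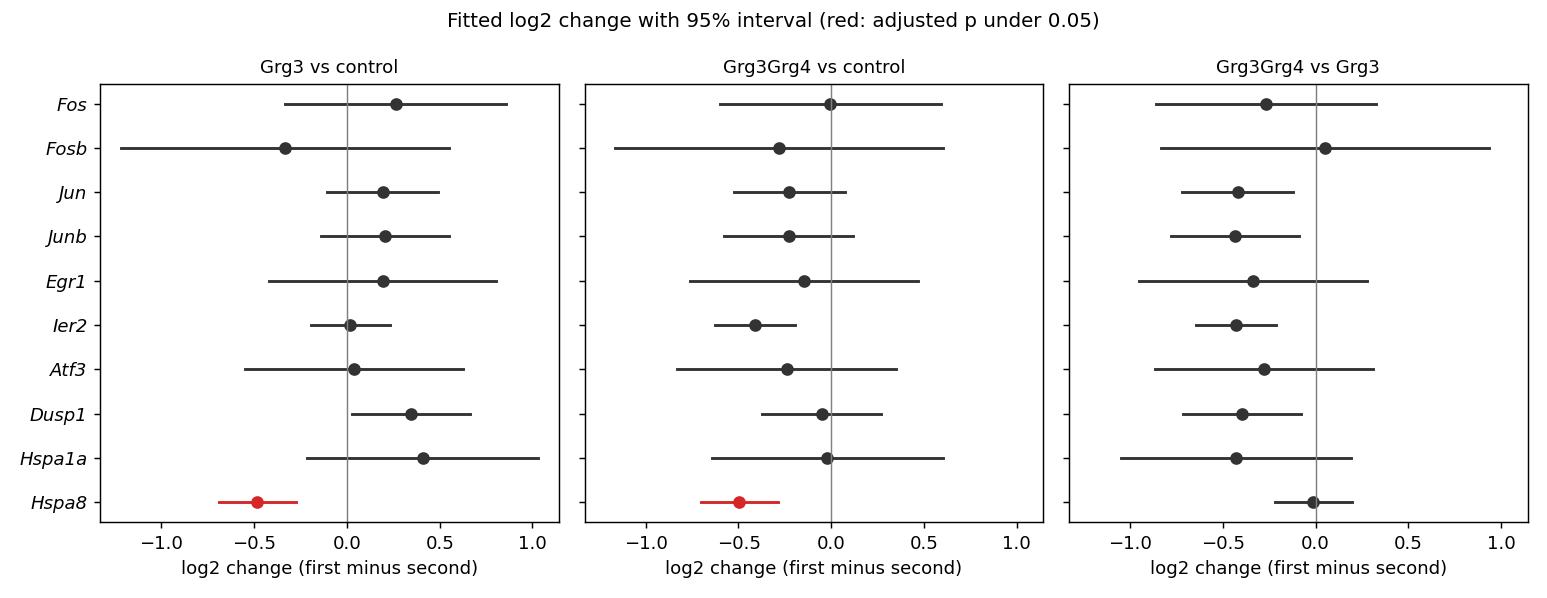
Fitted log2 change (horizontal axes) of the 10 genes (rows) in the 3 comparisons, as points with 95% intervals. Red marks an adjusted p under 0.05. Hspa8 alone is red, at -0.48 and -0.50 against the control, and its interval against the Grg3 libraries includes 0.

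Over the 10 genes, 1 of 10 passed the test in Grg3 against control, where 1.4% of all genes tested did. In Grg3Grg4 against control it was again 1 of 10, where 2.14% of genes did. In Grg3Grg4 against Grg3 it was 0 of 10, where 0.188% did (edgeR), and DESeq2's Wald test called 1, Ier2, and limma voom 0. At an unadjusted p under 0.05 the counts were 2, 2 and 4 of 10, against 19.1%, 20.2% and 17.3% of all genes. Groups did not overlap for 2 of 10 genes in each comparison (Jun and Hspa8, Ier2 and Hspa8, Jun and Ier2), against 24.6%, 29.1% and 21.1% of all genes. Both edgeR calls against the control are Hspa8, so 1 gene makes up each count. No unadjusted or non-overlap count against the control exceeded the share of all genes by a whole gene.

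The fitted change was above 0 for 8 of 10 genes in Grg3 against control (median 0.19, all genes 0.02). It was below 0 for 10 of 10 in Grg3Grg4 against control (median -0.23, all genes 0.01), but with library totals 7 of these, Fos, Jun, Junb, Egr1, Atf3, Dusp1 and Hspa1a, turned to between 0.01 and 0.23, all still below the median gene at 0.26. Between Grg3Grg4 and Grg3 it was below 0 for 9 of 10 (median -0.37, all genes -0.00). The 3 comparisons share libraries, and the genes of a library share its RNA, so these counts carry no test.

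Within the Grg3Grg4 group the immediate early genes differed widely between libraries. Grg3Grg4 replicate 1 was among the 3 lowest libraries for 8 of the 8 immediate early genes and replicate 2 for 7, whereas replicate 3 of the same group was among the 3 highest for 5. The mean deviation of the 8 genes from their 9-library mean was -0.40, -0.34 and 0.19 on the log2 scale in those libraries. In the Grg3 libraries it was 0.07, 0.26 and 0.11, and in the controls 0.13, 0.05 and -0.06. Without Grg3Grg4 replicate 3, the change from the control was -0.27 for Fos, -0.82 for Fosb, -0.40 for Jun, -0.39 for Junb and -0.48 for Egr1, none past the threshold in edgeR's test (adjusted p from 0.105 to 0.645).

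**Figure D3:**
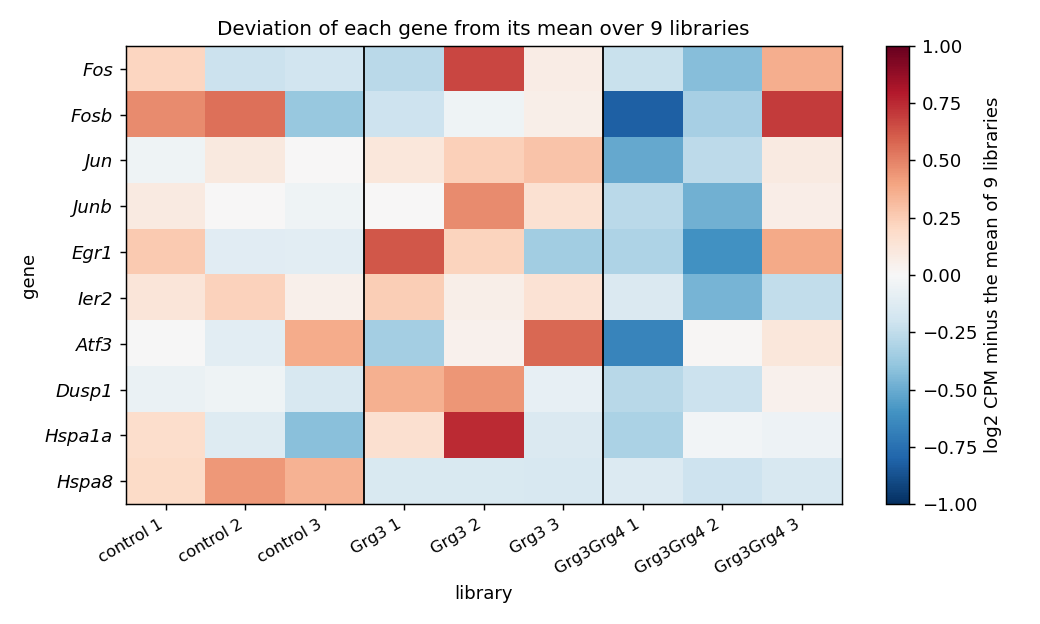
Log2 CPM of each gene (rows) minus its mean over the 9 libraries (columns; black lines part the groups), from blue (lower) to red (higher). Grg3Grg4 replicates 1 and 2 are mostly blue over the immediate early genes and replicate 3 mostly red, while Hspa8 is red in the 3 controls only.

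Several immediate early genes scattered more between replicates than other genes of their level. The within-group SD on the log2 scale was 0.42 for Egr1, above 98.5% of tested genes within 0.5 of its log2 level. It was 0.39 for Fos (above 90.9%) and for Atf3 (above 90.2%). Ier2, at 0.12, was near the middle (50.4%), and Hspa8, at 0.07, was among the steadiest (7.14%).

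Of the 45 pairs among the 10 genes, 39 had a Pearson r above 0 over the 9 libraries (median 0.44). Fos and Junb were the closest, with r = 0.84 (exact permutation p = 0.00260, adjusted over 45 pairs 0.117) and Spearman's rho = 0.85 (exact permutation p = 0.00607, adjusted 0.273). Without the 2 libraries farthest in Fos, r was 0.75, and on deviations from the group means it was 0.96. No pair passed the adjusted threshold by Pearson or Spearman, and 6 had an unadjusted Pearson p under 0.05. Pairs within the immediate early genes had a median r of 0.46 (26 of 28 above 0), and pairs of an immediate early with an Hsp70 gene 0.20 (13 of 16 above 0). The difference between these medians was not tested, and all genes of a library share its RNA, cell makeup and depth.

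Among 11337 genes with a mean of at least 5 CPM, those whose log2 level over the 9 libraries was most like that of Fos were Robo4 (r = 0.95), Sept8 (0.95), Tpm3 (0.94), Limk1 (0.93), Has2 (0.93) and Cmklr1 (0.92). For Hspa1a they were Pcolce (r = 0.97), Rab12 (0.97), S100a10 (0.96), Washc1 (0.95), Fscn1 (0.95) and Hspa12b (0.95). With 9 libraries and so many genes searched, values of this height are a ranking and no test.

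Other genes of the same pathways were counted against all genes tested, of which 1.4% passed in Grg3 and 2.14% in Grg3Grg4 against control, and 19.1% and 20.2% had an unadjusted p under 0.05. In the same comparisons DESeq2's Wald test called 1323 and 1471 of 33324 genes, and limma voom 421 and 1033 of 19166. The 33324 are all genes with at least 1 count, here and below, while the list genes counted had passed the filter on low counts. The share of 33324 is therefore not like for like with the lists and is low as a background. The median change of all genes was 0.02 and 0.01. Of 18 other immediate early transcription factors tested, 0 passed the test in Grg3 against control (1 at an unadjusted p under 0.05, and 0 by DESeq2 or limma voom) and 1 fell in Grg3Grg4 against control (5 at an unadjusted p under 0.05, and 2 called by DESeq2 and by limma voom). This was Klf10, a zinc finger factor of the TGF-beta response, at 29.1 ± 1.87 CPM in the control and 20.8 ± 0.879 in the Grg3Grg4 libraries (SD, n = 3; log2 -0.48, SE 0.10, edgeR adjusted p = 0.0369). Klf6 stood at 83.2 ± 5.03 and 61.8 ± 8.01 CPM (adjusted p = 0.0713) and Jund, a further AP-1 subunit, at 109 ± 11.6 and 93.1 ± 9.32 CPM (adjusted p = 0.243). The list's median change was 0.02 in Grg3 and -0.20 in Grg3Grg4 against control. Leaving out any 1 control or Grg3Grg4 library, or Grg3 replicate 1, ended the Klf10 call (adjusted p from 0.0587 to 0.157), as did embryo sex as a term (0.140), the replicate block (0.0661) and library totals (log2 -0.24, adjusted p = 0.308).

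Of 26 other immediate early effectors, 1 rose in Grg3 and 1 fell in Grg3Grg4 libraries against control (edgeR). At an unadjusted p under 0.05 there were 11 and 7 of 26, against 19.1% and 20.2% of all genes. DESeq2's Wald test called 4 and 6, limma voom 2 and 3 and edgeR without the filter 4 and 3, and edgeR on only the 6 libraries 0 and 4, while with embryo sex as a term or the replicate block 0 were called in either comparison. Over all genes DESeq2 called 1323 and 1471 of 33324, and limma voom 421 and 1033 of 19166. For edgeR without the filter it was 586 and 930 of 33324. Gadd45b, a stress sensor of the p38 and JNK pathways, rose from 30.9 ± 3.45 to 53.2 ± 11.7 CPM in the Grg3 libraries (SD, n = 3; log2 0.78, SE 0.14, edgeR adjusted p = 0.0350). In the Grg3Grg4 libraries it was at 48.2 ± 2.68 CPM (log2 0.64, adjusted p = 0.0535). Its relative Gadd45g was at 24.7 ± 3.32, 38.5 ± 7.52 and 35.5 ± 1.79 CPM in the same order of groups, without overlap of the control and without passing the test (adjusted p = 0.0608 and 0.0844). Such groups did not overlap for 24.6% and 29.1% of all genes. Trib1, a pseudokinase that directs protein degradation, fell from 33.3 ± 0.154 to 24.1 ± 1.14 CPM in the Grg3Grg4 libraries (log2 -0.47, SE 0.08, adjusted p = 0.0275). Ccn1, a secreted matrix protein, was at 22.7 ± 2.08 in the control and 34.2 ± 4.89 CPM in the Grg3 libraries (adjusted p = 0.0904). The Gadd45b call was lost without any 1 control, Grg3 replicate 1 or Grg3Grg4 replicate 1 or 3 (adjusted p from 0.0556 to 0.165), and the Trib1 call without any 1 control or Grg3Grg4 library (from 0.0543 to 0.129). Gadd45b also missed the threshold with embryo sex as a term (0.0568), the replicate block (0.0638) and only the 6 libraries (0.0510), at changes of 0.77 to 0.78. Trib1 did so with embryo sex (0.0879), the replicate block (0.0587) and library totals (log2 -0.22, adjusted p = 0.260).

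The genes that restrain the MAP kinases, to which Dusp1 belongs, gave 0 calls among 15 in either comparison with the control, with 4 and 8 of 15 at an unadjusted p under 0.05 (edgeR), against 19.1% and 20.2% of all genes. DESeq2's Wald test called 2 of 15 in the Grg3 and 6 of 15 in the Grg3Grg4 libraries, and limma voom 0 and 3. Over all genes DESeq2 called 1323 and 1471 of 33324, and limma voom 421 and 1033 of 19166. In the Grg3Grg4 libraries 13 of 15 were below 0, with a median change of -0.22, where that of all genes was 0.01. These directions hold for TMM scaling. With library totals the median of all genes stood at 0.26. Dusp4 was at 10.8 ± 0.818 CPM in the control and 7.48 ± 0.997 in the Grg3Grg4 libraries (SD, n = 3; adjusted p = 0.0678), and Spry2, an inhibitor of receptor tyrosine kinase signalling, at 31.6 ± 1.5 and 23.5 ± 2.79 CPM (adjusted p = 0.0659). Of 18 upstream kinases and factors 0 passed in edgeR's test, with 4 and 1 at an unadjusted p under 0.05, and DESeq2 and limma voom each called 1 and 0. Creb1, which binds the cyclic AMP response element, was at 39.7 ± 1.97, 34.0 ± 1.35 and 35.0 ± 0.607 CPM in the control, Grg3 and Grg3Grg4 libraries (adjusted p = 0.136 and 0.190).

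The rest of the chaperone system gave 0 calls against the control in edgeR's test. DESeq2 and limma voom also called 0 in the Grg3 libraries, and each called 1 gene of either chaperone list in the Grg3Grg4 libraries. Over all genes they called 1471 and 1033 in the latter comparison. Of 13 other Hsp70 and Hsp110 genes, 1 in each comparison had an unadjusted p under 0.05, and the median changes were -0.12 and -0.01. That gene was Hspa13 in both, at 56.5 ± 2.81, 44.4 ± 7.43 and 39.2 ± 7.66 CPM in the control, Grg3 and Grg3Grg4 libraries. Like Hspa8 it had all 3 controls above all 6 others, as did 5.75% of genes tested. It did not pass edgeR's test (log2 -0.35 and -0.52, adjusted p = 0.247 and 0.0953). Hspa5, the Hsp70 of the endoplasmic reticulum, was at 1352 ± 81.8, 1333 ± 260 and 1276 ± 86.3 CPM in the control, Grg3 and Grg3Grg4 libraries, and its groups overlapped. Hspa4, an Hsp110 exchange factor, was at 119.5 ± 5.12, 109.6 ± 8.93 and 132 ± 12.5 CPM. Of 26 heat shock factors and other chaperones, 0 passed and 1 in each comparison had an unadjusted p under 0.05 (edgeR), with median changes of 0.00 and -0.05. Hsp90ab1, the constitutive cytosolic Hsp90, was at 1286 ± 70.2, 1492 ± 12.7 and 1425 ± 64.9 CPM, above the control in all 6 other libraries but short of the test (adjusted p = 0.284 and 0.450). Of all genes, 24.6% did not overlap between Grg3 and control and 29.1% between Grg3Grg4 and control. Between Grg3Grg4 and Grg3 libraries none of the 6 lists had a called gene in edgeR's test or limma voom. In the order of the lists, 6 of 18, 7 of 26, 1 of 15, 1 of 18, 2 of 13 and 3 of 26 genes had an unadjusted p under 0.05 (edgeR), against 17.3% of all genes. DESeq2 called 2, 1, 1, 1, 0 and 0 in the same lists, and 877 of 33324 genes in all.

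**Figure D4:**
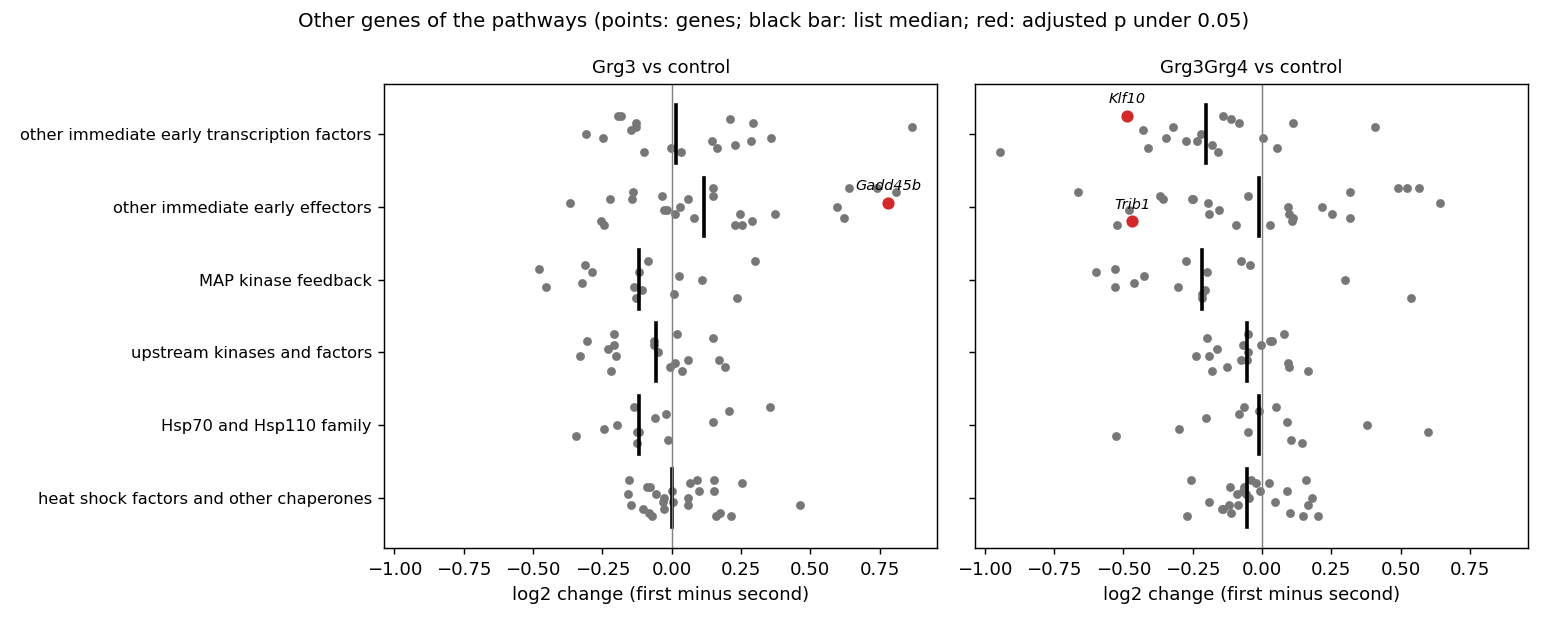
Log2 change against the control (horizontal axes) of every tested gene of the 6 pathway lists (rows), in the Grg3 (left) and Grg3Grg4 (right) libraries. Grey points are genes, black bars list medians and red points genes with adjusted p under 0.05, which are Gadd45b on the left and Klf10 and Trib1 on the right.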

How the data were processed

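RNA of whole embryonic pancreas was sequenced in 9 libraries. For each library the authors deposited unnormalised read counts by gene symbol, made with tools that the submitters' processing notes list as FastQC, Trim Galore, HISAT2, HTSeq, bedtools and DESeq2, on mm10/GRCm38. Neither tool versions nor the strand setting of the counting could be read from the labels. The 5 rows that name no gene (28.5% to 33.2% of reads) were left out. Counts were fitted with edgeR 4.0.16 (R 4.3.3): filterByExpr (minimum count 10, total 15), TMM factors, glmQLFit and glmQLFTest, all 9 libraries in 1 fit with a mean per group, Benjamini-Hochberg adjustment over 19166 genes and a threshold of 0.05. Embryos are counted as separate per the design text, and pooling is not stated. Alternatives were DESeq2 1.42.0 (size factors, Wald test), limma 3.58.1 (voom), other filters, a replicate block, only the 6 libraries compared, embryo sex as a term and each library left out. Library totals as scaling, and a fit without 79 acinar enzyme and Reg genes, were added after seeing the data. The scripts were tested on simulated counts.

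The 10 genes and all lists were chosen with earlier results of these data known. Of each pathway list, the genes eligible to be named were the 4 of smallest p in any comparison and the 2 of highest mean CPM, and the text names some of them. For likeness, the 6 genes of highest r with Fos and with Hspa1a were named, from log2 CPM (prior count 2). Gene positions and exon lengths are GENCODE M21 on GRCm38, and promoters are RefSeq's.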

Additional observations from a re-analysis of the deposited data

How the results depend on the processing

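With 3 libraries a group every comparison is limited, and Fosb and Hspa1a rest on few reads. For the 10 genes, 508 of 570 values kept direction and side of the threshold, most of them for changes that were not called. For Hspa8, the only one of the 10 called, 11 and 9 of 19 alternatives lost the call in Grg3 and Grg3Grg4 against control.

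In Grg3 against control, the count of members called, 1, went to 0 with embryo sex as a term, library totals only, only the 6 libraries compared and the replicate block, and to 0 to 1 with a library left out. In Grg3Grg4 against control it went from 1 to 2 with DESeq2's Wald test, limma voom and no filter, to 0 with embryo sex, library totals and the replicate block, and to 0 to 2 with a library left out. Between Grg3Grg4 and Grg3, DESeq2 called 1, and 0 were called with any library left out.

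All genes called in Grg3 against control numbered 268, and 1323 by DESeq2, 169 with sex, 644 with library totals, 421 by limma voom, 586 without filter, 167 with the replicate block and 32 (without control replicate 3) to 327 with a library left out. In Grg3Grg4 against control they numbered 410, and 1471, 30, 1754, 1033, 930 and 254 in the same order, 750 with only the 6 libraries, and 50 (without control replicate 3) to 825 (without Grg3 replicate 2). Between Grg3Grg4 and Grg3 they numbered 36, and 877 by DESeq2, 75 with at least 1 CPM in 3 libraries, 4 with sex, 21 with library totals, 228 without filter, 10 with only the 6 libraries, 11 with the replicate block and 6 (without Grg3 replicate 1) to 49. The filters change the genes tested and some settings the samples, and otherwise the cause was not tested.

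The following changes, none of them called, reversed in sign. For Atf3 in Grg3 against control the values were -0.0035 by voom and -0.00096 with the replicate block. In Grg3Grg4 against control, Fos reached 0.0088 with the 1 CPM filter, 0.054 with sex, 0.231 with library totals, 0.026 by voom and 0.0040 with only the 6 libraries. With library totals Jun was at 0.021, Junb 0.012, Egr1 0.089, Atf3 0.0073, Dusp1 0.195 and Hspa1a 0.226. Atf3 was at 0.029 with sex and Hspa1a at 0.0028 by voom. Between Grg3Grg4 and Grg3, Fosb was at -0.053 by voom, Hspa8 at 0.036 with library totals and, with sex, Atf3 at 0.020, Hspa8 at 0.051 and Hspa1b at 0.041. With a library left out, Grg3 against control ran from -0.037 to 0.459 for Fos, -0.054 to 0.407 for Egr1, -0.025 to 0.070 for Ier2 and -0.24 to 0.24 for Atf3. Grg3Grg4 against control ran from -0.27 to 0.15 for Fos, -0.477 to 0.048 for Egr1, -0.156 to 0.010 for Dusp1, -0.156 to 0.143 for Hspa1a and -0.084 to 0.136 for Hspa1b. Grg3Grg4 against Grg3 ran from -0.534 to 0.031 for Fos, -0.488 to 0.329 for Fosb and -0.028 to 0.0058 for Hspa8.

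No pairing by replicate number was seen on deviations from the group means. The 9 same-number pairs had correlations of -0.09 to 0.09, and 2 of 9 libraries correlated best with their own number. With 3 libraries a group this check cannot exclude a shared litter or batch. With the replicate block, Hspa8 had adjusted p = 0.0772 and 0.0645 (edgeR).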

Other observations

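The genes most like Hspa8 over the 9 libraries were looked up after its values were seen, by the measure used for Fos and Hspa1a. They were Prkce (r = 0.98), Ppm1b (0.97), Rpl34-ps1 (0.96), Pank3 (0.96), Ctrl (0.96) and Ddx19b (0.96). Prkce encodes a protein kinase C and ranged from 24.5 to 41.6 CPM. Ctrl, a chymotrypsin-like acinar enzyme, ranged from 473 to 3492 CPM. On deviations from the group means r stayed at 0.90 for Prkce and was 0.23 for Ctrl, so that the likeness of Ctrl rested mostly on the group means.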
